A study of Bos taurus with 9 samples.

Results

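The markers of the nonparenchymal and immune cells of the liver were followed by name through the gene counts of 9 cows. The list named 43 genes in 4 subgroups, and it was applied by gene symbol. It held 10 Kupffer cell genes, 10 endothelial genes, 11 stellate cell or fibroblast genes and 12 leukocyte genes. Of these, 42 were listed among the 28786 genes of the count table. The exception was *CSF3R*, a receptor of the neutrophil lineage, which was not among the listed symbols and is not analysed here. All 42 listed genes had at least 1 count in each of the 9 cows and passed the filter on low counts in every comparison. The smallest single count was 2, for *S100A8* in TN 1.

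The livers came from lactating Holstein cows (Bos taurus), biopsied on day 12 of 3 conditions with 3 cows each. TN cows were kept in thermoneutrality, and PF cows were kept in thermoneutrality but pair-fed to the intake of the heat-stressed cows. HS cows were heat-stressed at 27 to 37 °C by day and 27 °C by night. All cows were first acclimated in thermoneutrality. Each library was made from the polyA RNA of 1 cow, so that n = 3 in each group. HS vs. PF compares heat at matched intake, PF vs. TN compares intake without heat, and HS vs. TN compares both together. By the study's methods the groups also differed in average days in milk, which were lowest in TN and highest in PF. The comparisons with TN share the TN cows, and the comparisons with HS share the HS cows. Cows are written with their group and replicate number, as in HS 1.

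The liver is built mainly of hepatocytes, and the remaining cells line or surround its blood sinusoids. Kupffer cells are the resident macrophages that take up particles, lipoproteins and microbes from portal blood through scavenger and complement receptors. Sinusoidal endothelial cells form a perforated wall that clears waste molecules from blood, and stellate cells beneath it store vitamin A and, when activated, make collagen and contract. Lymphocytes, natural killer cells and neutrophils pass through or reside in the same vessels. In bulk liver, fewer cells of a type and less RNA per cell cannot be told apart.

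The libraries held 16874444 to 22557047 counts, and the 42 markers took 0.167% to 0.4198% of them. The share on the 13 mitochondrial protein-coding genes was 13.6% to 22.2% in TN, 6.90% to 7.79% in PF and 3.84% to 5.68% in HS. TN 1 stood apart in the hepatocyte genes: its 12 listed hepatocyte markers summed to 19168 CPM (read counts scaled to the effective library size), against 64116 to 139955 CPM in the other 8 cows. Albumin (*ALB*), the main secreted product of hepatocytes, was at 8768 to 82514 CPM. The muscle genes *ACTA1* and *MYH7*, the keratinocyte gene *KRT1* and the red cell gene *SLC4A1* had 0 counts in every cow, which allows up to 0.111 to 0.202 CPM, since a count of 0 allows up to 3 counts (counting error only).

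Levels are TMM-normalized CPM and are not corrected for gene length, so they were compared between cows within a gene and not between genes. Each pair of groups was tested over all genes by edgeR (quasi-likelihood F test). A gene was called differentially expressed (DEG) at FDR < 0.1 and FC > 1.5 (FC, fold change). No marker was a DEG by edgeR. In HS vs. TN, 0 of 42 markers passed, where 0.0892% of all genes tested did; in HS vs. PF, 0 of 42 passed, against 0.0276%; in PF vs. TN, 0 of 42 passed, against 0%. DESeq2 called 2 markers in HS vs. TN, *MARCO* and *S100A9*, and 0 in the other pairs. Over all genes it called 270 in HS vs. TN, 122 in HS vs. PF and 91 in PF vs. TN. The share of all genes tested was not computed for DESeq2. At an unadjusted p under 0.05, 3 markers were found in HS vs. TN (7.14% of 42, against 9.36% of all genes), 10 in HS vs. PF (23.8% against 5.32%), and 2 in PF vs. TN (4.76% against 6.88%).

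The 10 markers of HS vs. PF were all higher in HS, where 3.07% of all genes were. They were 7 Kupffer genes (*CD163*, *MARCO*, *CD68*, *VSIG4*, *CSF1R*, *TIMD4* and *CD5L*) and 3 leukocyte genes (*NKG7*, *S100A8* and *CXCR2*). Markers measured in the same 6 cows do not count as independent of each other. This count was 4 to 11 when each cow was left out in turn, with 4 without PF 3 and 6 without HS 3. The 11 came without HS 1 or without PF 2, and without HS 1 they were 8 higher in HS and 3 lower, the latter 2 endothelial genes and 1 stellate or fibroblast gene. Those of HS vs. TN were *MARCO* and *S100A9*, which were higher in HS (4.13% of all genes), and *LRAT*, which was lower (5.23%). Those of PF vs. TN were *RGS5*, which was higher in PF (2.99%), and *CSF1R*, which was lower (3.89%). A test of all 3 groups together found 0 of 42 markers at an FDR under 0.1, where 0.0464% of all genes passed, and 3 at an unadjusted p under 0.05, where 7.86% did (edgeR, smallest FDR 0.430).

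**Figure D1:**
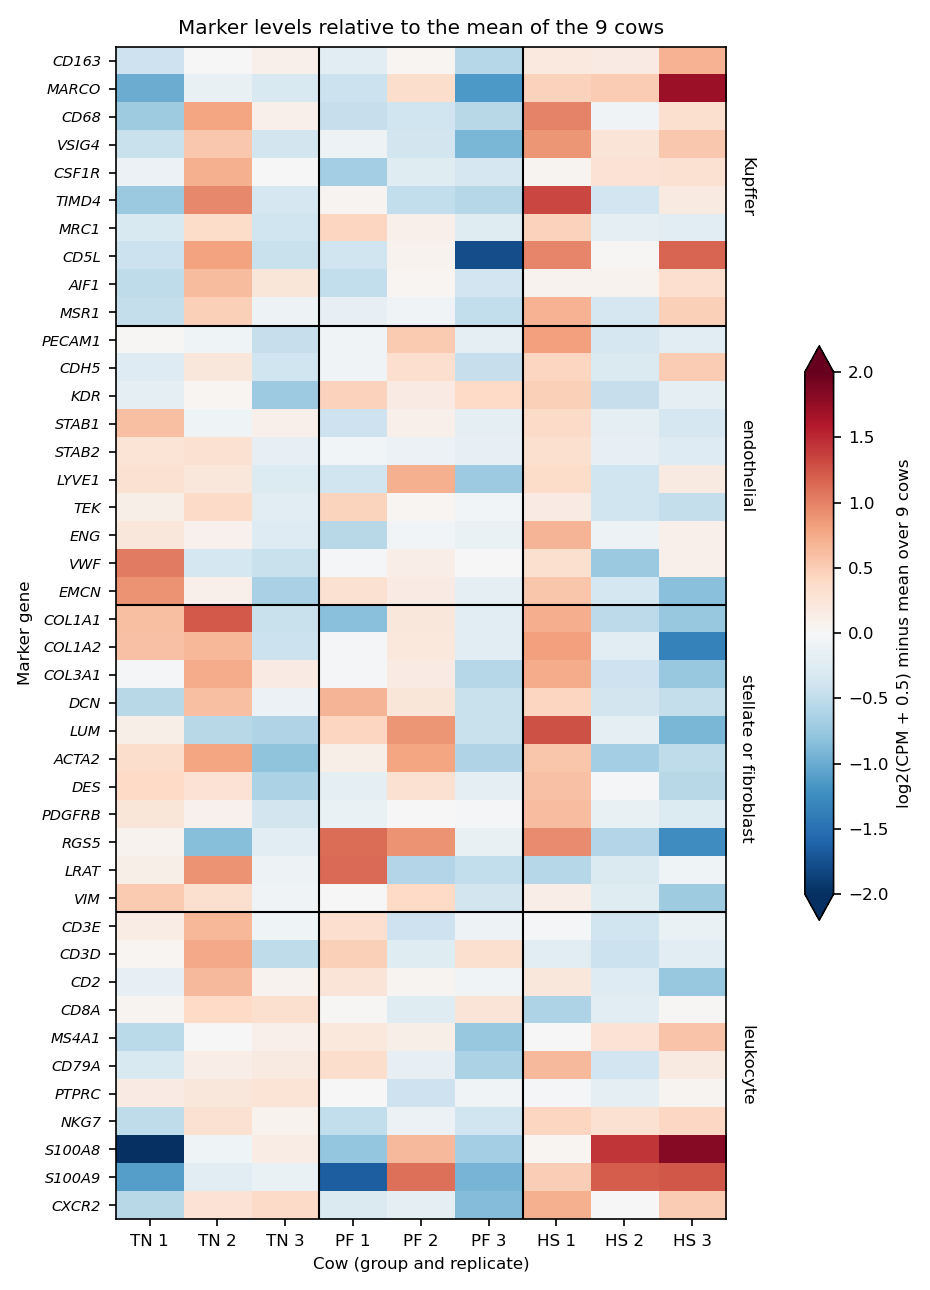
Level of each of the 42 markers (rows, by subgroup) in each of the 9 cows (columns, by group), as log2(CPM + 0.5) minus the mean over the cows. HS 1 was above the median of the 9 cows in 36 of 42 markers and PF 3 in 3 of 42.

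Directions were counted over all markers and by subgroup. In HS vs. TN, 21 markers were higher and 21 were lower (50.0% higher, against 49.3% of all genes), with a median log2 fold change of 0.03. Against PF, 27 were higher in HS and 15 lower (64.3% against 50.9%), with a median of 0.11. Between PF and TN, 13 were higher in PF and 29 lower (30.95% against 48.8%), with a median of -0.16. Over all genes tested the medians were -0.01, 0.01 and -0.01. These counts depended on single cows. Without HS 1, 13 markers were higher in HS and 29 lower against TN (median -0.23), and 18 were higher and 24 lower against PF (median -0.13), so that the balance against PF turned. Without TN 2, 19 were higher and 23 lower in PF vs. TN (median -0.03), and without PF 3 the counts were 17 and 25 (median -0.06).

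The 3 cows of one group lay wholly above or below those of the other for 5 markers in HS vs. TN, 8 in HS vs. PF and 3 in PF vs. TN (11.9%, 19.05% and 7.14% of 42). The corresponding shares of all genes tested were 16.1%, 10.5% and 13.2%. Separated in HS vs. TN were *CD163*, *MARCO* and *S100A9*, which were higher in HS (8.37% of all genes), and *CD8A* and *PTPRC*, which were lower (7.7%). Separated in HS vs. PF were *CD163*, *MARCO*, *CD68*, *VSIG4*, *CSF1R*, *AIF1*, *NKG7* and *CXCR2*, all higher in HS (5.95%). Separated in PF vs. TN were *KDR*, which was higher in PF (6.81%), and *CSF1R* and *PTPRC*, which were lower (6.36%).

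**Figure D2:**
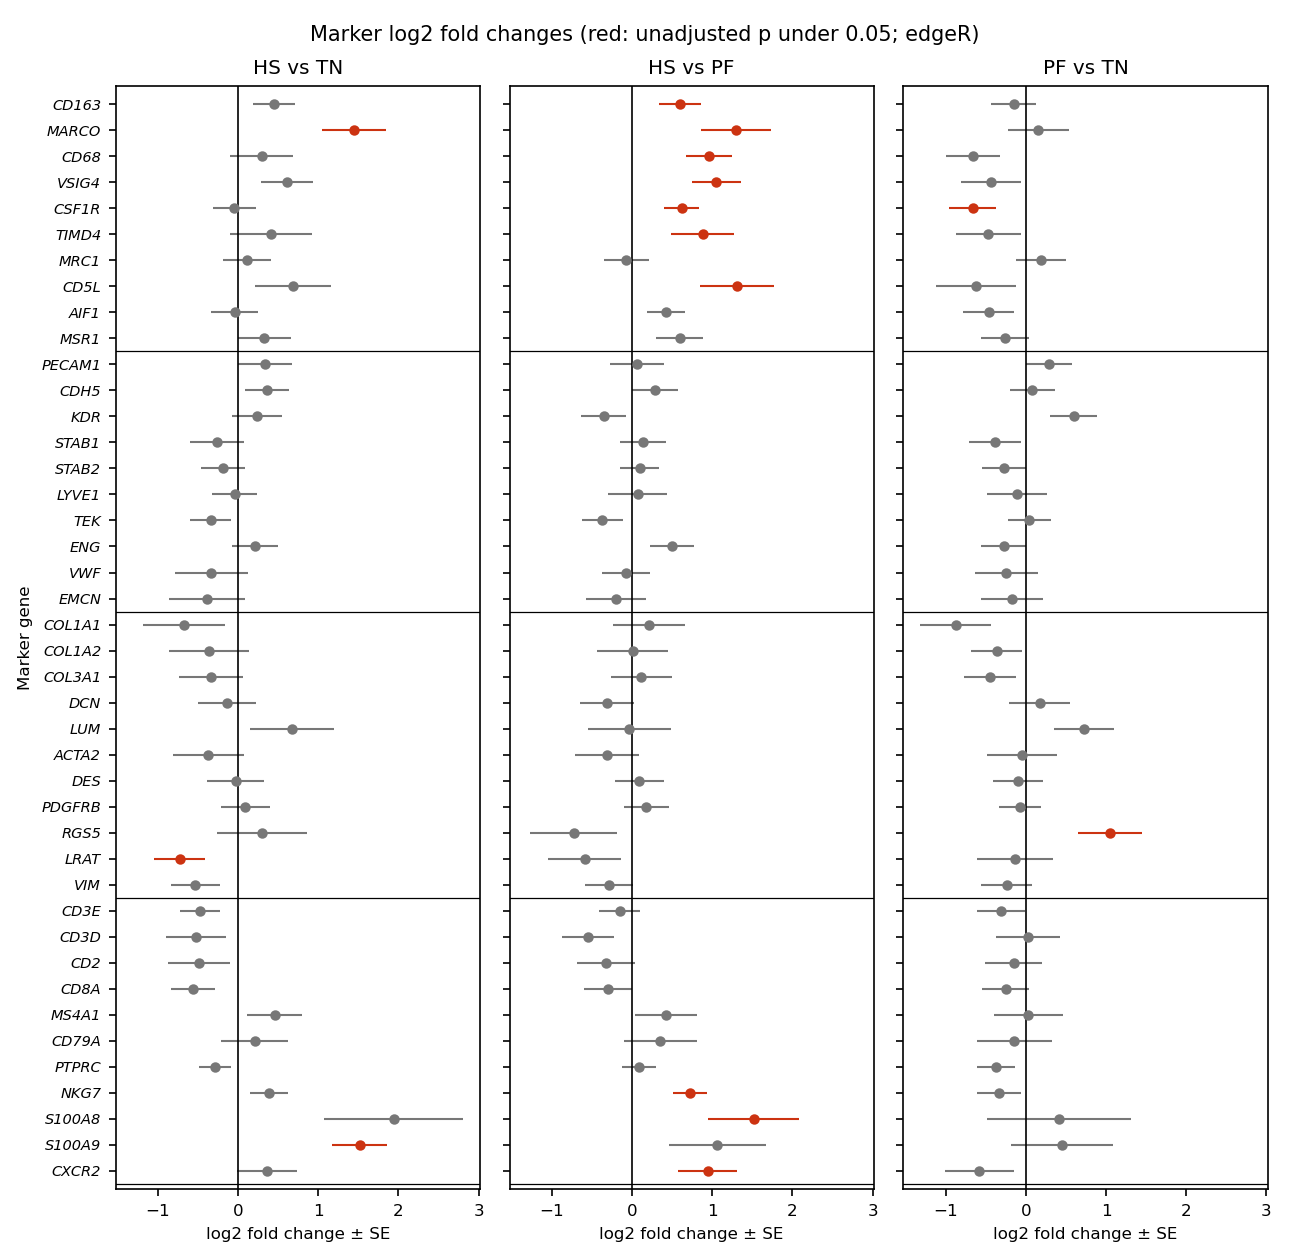
Log2 fold change of each marker (points, with bars of 1 SE) in HS vs. TN, HS vs. PF and PF vs. TN, from the edgeR fit of each pair. Red points had an unadjusted p under 0.05, no marker was a DEG by edgeR, and the Kupffer genes lie to the right of 0 for 9 of 10 in HS vs. PF.

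The Kupffer cell genes were higher in HS than in PF for 9 of 10 (50.9% of all genes). Higher at an unadjusted p under 0.05 were 7 of 10 (3.07% of all genes), and 6 of 10 were higher with no overlap between the groups (5.95%). Their median log2 fold change was 0.75, against 0.01 over all genes. Against TN, 8 of 10 were higher in HS (49.3% of all genes) with a median of 0.37. In PF, 8 of 10 were lower than in TN (51.2% of all genes) with a median of -0.45. Summed over the 10 genes, the level was 687, 1451 and 806 CPM in the TN cows, 778, 983 and 476 CPM in the PF cows and 1585, 1011 and 1836 CPM in the HS cows. The HS cows were thus all above the PF cows, while TN 2 lay among the HS cows. The group means were 981 ± 411 CPM in TN, 746 ± 255 CPM in PF and 1477 ± 423 CPM in HS (SD, n = 3). *CD5L* gave 27.4% to 55.3% of the summed level. The number of Kupffer genes at an unadjusted p under 0.05 in HS vs. PF was 3 without PF 3, and 5 without PF 1 or without HS 3. The direction of HS vs. PF held for 9 or 10 of the 10 genes with each cow left out. In HS vs. TN, 7 to 10 of the 10 genes were higher in HS with each cow left out, and the median fell to 0.07 without HS 1 and to 0.13 without TN 1 and was 0.68 without TN 2 (10 of 10 higher, 4 at an unadjusted p under 0.05). In PF vs. TN, 6 of 10 were lower in PF without TN 2, with a median of -0.05, and the median was -0.23 without PF 3.

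**Figure D3:**
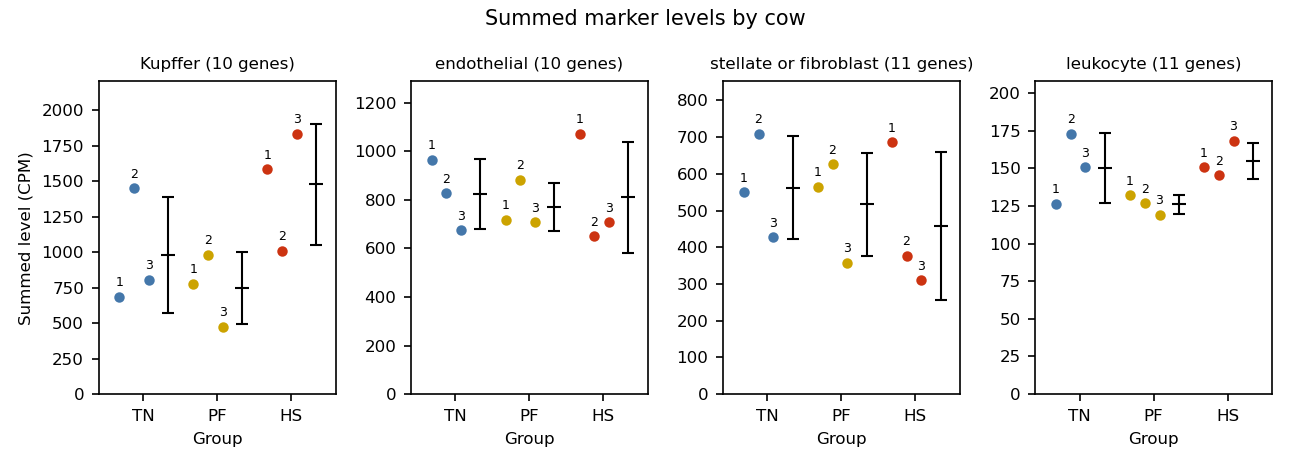
Summed level (CPM) of the markers of each subgroup in each cow (points with the replicate number), with the mean and SD of each group of 3 cows beside them. The HS cows lay above all PF cows in the Kupffer and the leukocyte panels, although 4 of the 11 leukocyte genes were lower in HS than in PF. HS 1 lay well above HS 2 and HS 3 in the endothelial and the stellate or fibroblast panels.

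Of the scavenger receptors, *MARCO*, which binds bacteria and particles, had the largest difference from TN in this subgroup. It was at 50.4, 90.4 and 80.9 CPM in the TN cows, 74.1, 129 and 44.7 CPM in the PF cows and 138, 143 and 329 CPM in the HS cows. Every HS cow was above every TN and PF cow, and HS 3 was by far the highest. *MARCO* had a log2 fold change of 1.45 (SE 0.40, edgeR FDR = 0.381) in HS vs. TN and 1.30 (SE 0.44, edgeR FDR = 0.679) in HS vs. PF. With DESeq2 the FDR in HS vs. TN was 0.0119, and over the 15 alternatives it ranged from 0.0119 to 0.9999. The upper end came from glmTreat, which tests another question, a fold change beyond 1.5. With each cow left out, the edgeR FDR was 0.262 to 0.738. Without HS 3 the log2 fold change in HS vs. TN was 0.92.

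*CD163*, the receptor that takes up hemoglobin bound to haptoglobin, was at 67.4, 90.7 and 96.2 CPM in the TN cows, 77.4, 92.3 and 60.1 CPM in the PF cows and 104, 100.8 and 146 CPM in the HS cows. The HS cows were again above all others, by a smaller margin, and its log2 fold change in HS vs. PF was 0.60 (SE 0.26, edgeR FDR = 0.908). *CD68*, a lysosomal protein of macrophages, was at 27.8, 79.4 and 48.96 CPM in the TN cows, 33.3, 34.5 and 31.1 CPM in the PF cows and 92.1, 43.4 and 57.3 CPM in the HS cows. The PF cows lay close together below all HS cows, whereas TN and HS overlapped. *CD68* had a log2 fold change of 0.96 (SE 0.28, edgeR FDR = 0.608) in HS vs. PF and, as the largest of the subgroup in that pair, -0.66 (SE 0.34, edgeR FDR = 0.709) in PF vs. TN.

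The other scavenger or uptake receptors had no unadjusted p under 0.05 in any pair by edgeR. Still, the log2 fold change of *MSR1* in HS vs. PF was close to that of *CD163*. *MSR1*, a class A scavenger receptor, ranged over 12.7 to 29.8 CPM and was highest in HS 1. *MRC1*, the mannose receptor, which sinusoidal endothelial cells also make, ranged over 65.2 to 118 CPM. It was the only Kupffer gene with a lower mean in the fit of HS vs. PF, and its groups overlapped in every pair.

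*VSIG4*, a complement receptor restricted to tissue macrophages, was at 6.98, 14.2 and 7.33 CPM in the TN cows, 8.94, 7.32 and 4.89 CPM in the PF cows and 18.1, 11.6 and 14.2 CPM in the HS cows. All PF cows were below all HS cows, and TN 2 was at the level of HS 3. *VSIG4* had a log2 fold change of 1.05 (SE 0.30, edgeR FDR = 0.587) in HS vs. PF. *TIMD4*, which binds phosphatidylserine on dying cells and marks long-lived Kupffer cells, was at 17.1, 57.1 and 22.8 CPM in the TN cows, 30.1, 20.6 and 19.5 CPM in the PF cows and 74.1, 22.1 and 33.2 CPM in the HS cows. The HS mean rested on HS 1, since HS 2 and HS 3 lay near the PF cows. *TIMD4* had a log2 fold change of 0.88 (SE 0.39, edgeR FDR = 0.921) in HS vs. PF, and it was 0.23 without HS 1.

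*CD5L*, a secreted protein of macrophages that blocks apoptosis and binds lipids, was at 331, 776 and 327 CPM in the TN cows, 337, 469 and 131 CPM in the PF cows and 877, 454 and 996 CPM in the HS cows. HS 1, HS 3 and TN 2 were high, PF 3 was the lowest, and HS 2 was below PF 2. *CD5L* had a log2 fold change of 1.31 (SE 0.46, edgeR FDR = 0.713) in HS vs. PF, the largest of the subgroup in that pair. *CSF1R*, the receptor for the growth factor on which macrophages depend, was at 57.7, 103 and 63.1 CPM in the TN cows, 39.1, 53.2 and 49.8 CPM in the PF cows and 65.1, 76.6 and 77.2 CPM in the HS cows. The PF cows were below all cows of both other groups. *CSF1R* had a log2 fold change of 0.62 (SE 0.22, edgeR FDR = 0.762) in HS vs. PF and -0.66 (SE 0.29, edgeR FDR = 0.708) in PF vs. TN. *AIF1*, a calcium-binding protein of macrophages, ranged over 46.2 to 102 CPM with all HS cows above all PF cows. The reads of *AIF1* could not be separated from those of *NCR3*, which overlaps it in the RefSeq annotation, because the strand setting of the counting was not given in the sources used here.

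A companion list of 16 other Kupffer and macrophage genes had 15 listed and 14 tested. It had 9 higher and 5 lower of 14 tested (median log2 fold change 0.32) in HS vs. PF, with 4 higher at an unadjusted p under 0.05 (3.07% of all genes). *FCER1G*, the shared signalling chain of Fc receptors, had the smallest p, and its log2 fold change was 0.84 (SE 0.28, edgeR FDR = 0.669). The list had 8 higher and 6 lower of 14 tested (median log2 fold change 0.18) in HS vs. TN, with 0 at an unadjusted p under 0.05 (9.36% of all genes). It had 5 higher and 9 lower of 14 tested (median log2 fold change -0.31) in PF vs. TN. In that pair *CD14*, a receptor for bacterial lipopolysaccharide that hepatocytes also make, had a log2 fold change of 1.22 (SE 0.39, edgeR FDR = 0.697). None of these genes was a DEG by edgeR.

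**Figure D4:**
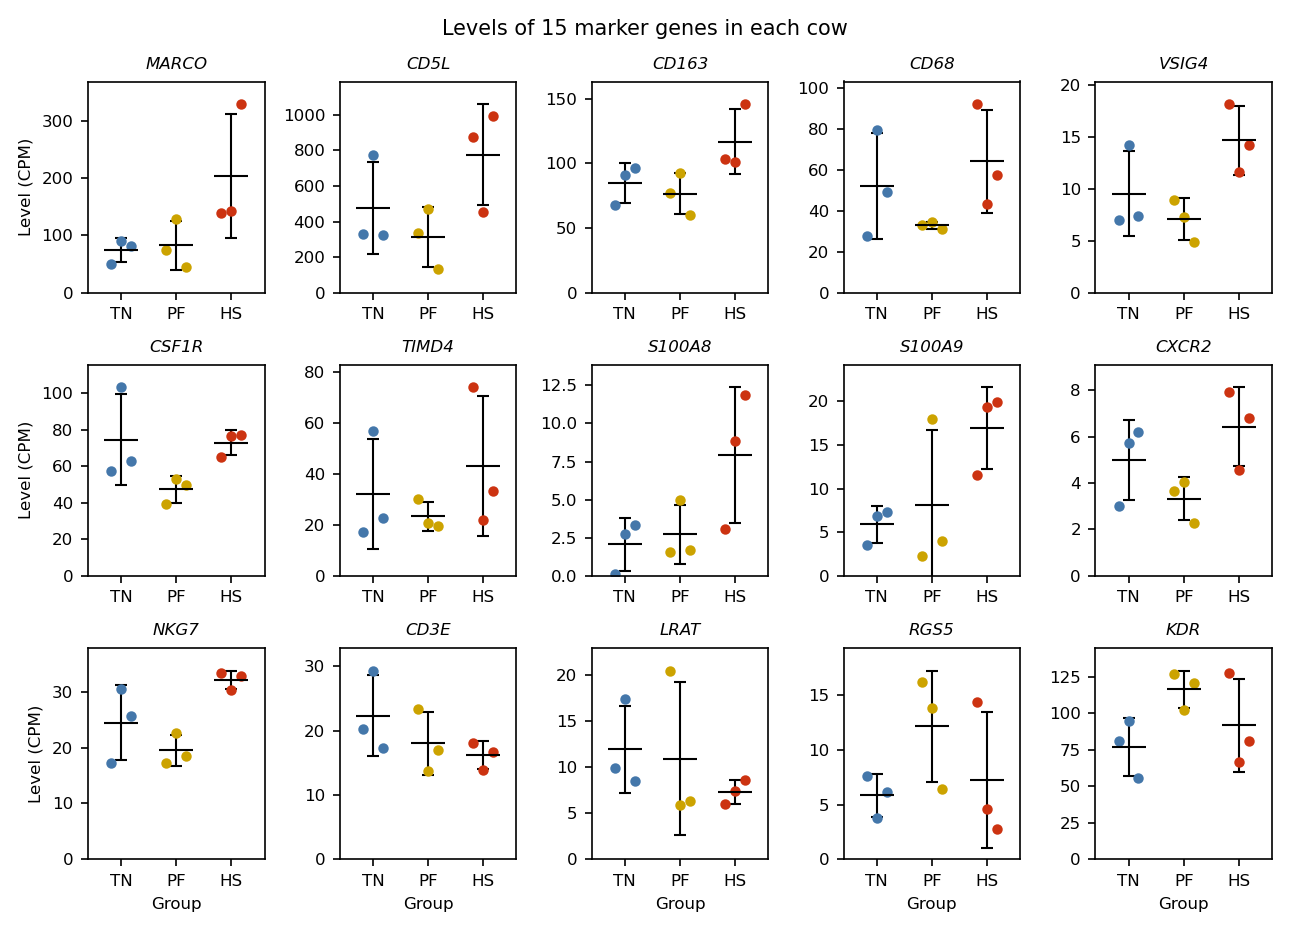
Level (CPM) of 15 markers in each cow (points, by group), with the mean and SD of each group of 3 cows. Every HS cow lay above every other cow for MARCO and CD163, and every HS cow lay above every PF cow for CD68, VSIG4, CSF1R, CXCR2 and NKG7.

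Of the endothelial genes, there were 4 higher and 6 lower of 10 in HS vs. TN (median log2 fold change -0.11), in HS vs. PF 6 and 4 (median 0.07), and in PF vs. TN 4 and 6 (median -0.14). None was a DEG or had an unadjusted p under 0.05 in any pair by edgeR, and DESeq2 called none of them (unadjusted p under 0.05 for 0, 0 and 1 of 10). By edgeR, 9.36%, 5.32% and 6.88% of all genes tested were under that p in the 3 pairs. With 10 genes, a count of 0 is near these shares. The summed level was 966, 828 and 676 CPM in the TN cows, 718, 884 and 709 CPM in the PF cows and 1073, 651 and 709 CPM in the HS cows, with means of 823 ± 145 CPM in TN, 770.3 ± 98.5 CPM in PF and 811 ± 229 CPM in HS (SD, n = 3). The groups overlapped, and HS 1 and TN 1 were the highest cows. Without HS 1, 9 of 10 were lower in HS than in TN (median -0.29) and 8 of 10 were lower than in PF (median -0.22, 2 at an unadjusted p under 0.05). Without TN 1, 7 of 10 were higher in HS than in TN (median 0.22) and 7 of 10 were higher in PF than in TN (median 0.04).

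Of the clearance receptors of the sinusoidal wall, *STAB1* ranged over 174 to 351 CPM, *STAB2* over 88.1 to 132 CPM and *LYVE1*, a hyaluronan receptor, over 43.3 to 118 CPM. *STAB1* overlaps *NT5DC2* in the RefSeq annotation, so its reads may include that gene, and the same holds for *PECAM1* with *MILR1* and *TEK* with *IFT74*. The highest cow was TN 1 for *STAB1*, HS 1 for *STAB2* and PF 2 for *LYVE1*, and the groups overlapped for all 3 genes.

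*KDR*, the main receptor for vascular endothelial growth factor, was at 81.2, 94.4 and 55.5 CPM in the TN cows, 127, 103 and 121 CPM in the PF cows and 128, 66.6 and 80.9 CPM in the HS cows. All PF cows were above all TN cows, and the HS cows spread over both. *KDR* had a log2 fold change of 0.60 (SE 0.29, edgeR FDR = 0.709), the largest of the subgroup in PF vs. TN. *TEK*, the angiopoietin receptor, ranged over 36.3 to 68.5 CPM. *ENG*, a coreceptor for transforming growth factor beta, was at 121, 109.6 and 86.6 CPM in the TN cows, 70.2, 99.01 and 93.6 CPM in the PF cows and 166, 96.2 and 110.5 CPM in the HS cows. HS 1 was far above the rest, and the log2 fold change in HS vs. PF, the largest of the subgroup, was 0.50 (SE 0.28, edgeR FDR = 0.985). Without HS 1 it was 0.22.

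The junction proteins *PECAM1* and *CDH5* ranged over 46.6 to 115 CPM and 28.6 to 56.6 CPM. *VWF*, the clotting protein made by the endothelium of larger vessels, ranged over 6.899 to 25.1 CPM and was highest in TN 1. *EMCN*, a sialomucin of veins and capillaries, was at 17.9, 10.1 and 5.72 CPM in the TN cows, 11.5, 10.4 and 8.103 CPM in the PF cows and 13.96, 7.19 and 4.98 CPM in the HS cows. TN 1 was the highest and HS 3 the lowest cow. *EMCN* had a log2 fold change of -0.38 (SE 0.47, edgeR FDR = 0.789) in HS vs. TN, the largest of the subgroup, and it was 0.15 without TN 1.

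A companion list of 18 further endothelial genes had 7 higher and 9 lower of 16 tested (median log2 fold change -0.05) in HS vs. TN. *FLT4*, the receptor for the lymphatic growth factor VEGF-C that sinusoidal endothelium also carries, had the smallest p, and its log2 fold change was -0.74 (SE 0.25, edgeR FDR = 0.456). In HS vs. PF the list had 6 higher and 10 lower of 16 tested (median log2 fold change -0.19), and in PF vs. TN 8 higher and 8 lower of 16 tested (median log2 fold change 0.00). In both pairs 0 genes had an unadjusted p under 0.05, against 5.32% and 6.88% of all genes (edgeR).

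The stellate cell and fibroblast genes were lower in HS than in TN for 8 of 11 (against 50.7% of all genes), with a median log2 fold change of -0.34. An unadjusted p under 0.05 was found for 1 of 11, against 9.36% of all genes. Against PF, 5 were higher and 6 lower (median -0.03), and in PF vs. TN 3 were higher and 8 lower (median -0.10). The summed level was 551, 709.6 and 428 CPM in the TN cows, 565, 626 and 358 CPM in the PF cows and 687, 377 and 310.1 CPM in the HS cows, with means of 563 ± 141 CPM in TN, 517 ± 140.3 CPM in PF and 458 ± 201 CPM in HS (SD, n = 3). HS 1 was the second highest of the 9 cows and HS 3 the lowest, so the HS cows spanned nearly the whole range.

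The HS cows differed among themselves in this subgroup. Without HS 1, all 11 genes were lower in HS than in TN (3 at an unadjusted p under 0.05, median -0.68) and all 11 were lower than in PF (1 at that p, median -0.52). Without HS 3, 6 of 11 were higher in HS than in TN (median 0.02). Without TN 2, 6 of 11 were lower in HS than in TN, and 6 of 11 were higher in PF than in TN (median 0.02). The bile duct genes were high and low in the same HS cows. Of a list of 7 cholangiocyte genes, the mean of log2(CPM + 0.5) was 1.06 above its mean over the 9 cows in HS 1, and -0.52 and -0.78 relative to it in HS 2 and HS 3. The corresponding values of the stellate and fibroblast genes were 0.57, -0.34 and -0.69. The summed level of the cholangiocyte genes was 87.1, 136 and 48.96 CPM in the TN cows, 49.2, 91.9 and 43.01 CPM in the PF cows and 109.9, 32.2 and 20.9 CPM in the HS cows. Most of the sum of TN 2 was *SPP1*, a gene of macrophages as well, whose levels are given below. The mean of log2(CPM + 0.5) of the list in TN 2 was 0.17 above its mean over the 9 cows. The part of the cholangiocyte genes in the result was not tested.

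Of the matrix genes, *COL3A1*, a fibrillar collagen of portal tracts and vessel walls, was at 95.2, 162 and 109.7 CPM in the TN cows, 95.4, 109 and 65.1 CPM in the PF cows and 163, 73.03 and 57.1 CPM in the HS cows. TN 2 and HS 1 were the highest and HS 3 the lowest. *COL1A1* and *COL1A2*, the chains of type I collagen, ranged over 3.85 to 17.6 CPM and 6.39 to 30.5 CPM. Neither separated the groups in any pair. The proteoglycans *DCN* and *LUM*, which bind collagen fibrils, ranged over 67.6 to 159.8 CPM and 5.32 to 25.8 CPM, and *LUM* was highest in HS 1.

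*LRAT*, which esterifies retinol and marks stellate cells that store vitamin A, was at 9.93, 17.4 and 8.47 CPM in the TN cows, 20.5, 5.92 and 6.32 CPM in the PF cows and 5.94, 7.37 and 8.55 CPM in the HS cows. The HS cows were low and close together, and only HS 3 reached the lowest TN cow. PF 1 was the highest cow, while the other PF cows lay at the HS level. *LRAT* had a log2 fold change of -0.73 (SE 0.32, edgeR FDR = 0.522) in HS vs. TN, the largest of the subgroup in that pair, and it was -0.35 without TN 2. HS 1 was among the lowest cows for *LRAT*, although it was above the median for the other 10 genes of this subgroup.

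*RGS5*, a signalling regulator of pericytes, was at 7.61, 3.77 and 6.14 CPM in the TN cows, 16.2, 13.9 and 6.42 CPM in the PF cows and 14.4, 4.62 and 2.76 CPM in the HS cows. PF 1, PF 2 and HS 1 were high and the remaining cows were lower. *RGS5* had a log2 fold change of 1.05 (SE 0.40, edgeR FDR = 0.708) in PF vs. TN and -0.73 (SE 0.54, edgeR FDR = 0.9998) in HS vs. PF, the largest of the subgroup in both pairs. Without HS 1 the latter was -1.72. *PDGFRB*, the receptor through which stellate cells and pericytes are stimulated to divide, ranged over 11.99 to 24.1 CPM. The contractile and filament genes *ACTA2*, *DES* and *VIM* ranged over 38.2 to 116 CPM, 13.8 to 32.9 CPM and 79.8 to 189 CPM, and the groups overlapped for each of them in every pair.

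A companion list of 21 further stellate cell and fibroblast genes had 11 higher and 10 lower of 21 tested (median log2 fold change 0.03) in HS vs. TN, 8 higher and 13 lower of 21 tested (median log2 fold change -0.11) in HS vs. PF and 12 higher and 9 lower of 21 tested (median log2 fold change 0.09) in PF vs. TN. *LOX*, which cross-links collagen, was the gene with the smallest p in both HS comparisons. It was at 3.98, 5.31 and 4.71 CPM in the TN cows, 9.23, 4.41 and 2.701 CPM in the PF cows and 2.695, 2.57 and 2.49 CPM in the HS cows. The HS cows were within a narrow range and below all TN cows. They were also below all PF cows, but HS 1 at 2.695 CPM and PF 3 at 2.701 CPM were in effect equal. *LOX* had a log2 fold change of -0.86 (SE 0.34, edgeR FDR = 0.495) in HS vs. TN and -1.07 (SE 0.46, edgeR FDR = 0.908) in HS vs. PF.

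Over the 11 listed leukocyte genes there were 6 higher and 5 lower in HS vs. TN (median log2 fold change 0.20), 7 and 4 in HS vs. PF (median 0.35), and 4 and 7 in PF vs. TN (median -0.15). The summed level was 126, 173 and 151 CPM in the TN cows, 132, 127 and 119 CPM in the PF cows and 151, 146 and 168 CPM in the HS cows. All HS cows were above all PF cows in this sum, and the TN cows overlapped with both. The sum did not stand for all its genes, since *CD3E*, *CD3D*, *CD2* and *CD8A* were the 4 lower in HS than in PF. Its largest increases from the PF mean to the HS mean were in *NKG7* (19.5 to 32.3 CPM), *S100A9* (8.07 to 17.0 CPM) and *S100A8* (2.73 to 7.91 CPM). *PTPRC* gave 30.9% to 46.1% of the summed level. The group means were 150.02 ± 23.4 CPM in TN, 126 ± 6.54 CPM in PF and 155 ± 11.9 CPM in HS (SD, n = 3). Without HS 1, the median was -0.12 in HS vs. TN (5 higher and 6 lower) and 0.07 in HS vs. PF, and without PF 3 the latter was 0.13.

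Of the 42 markers, the neutrophil gene *S100A8* had the largest fold change in both HS comparisons. *S100A9*, a subunit of the calcium-binding protein calprotectin, was at 3.49, 6.86 and 7.33 CPM in the TN cows, 2.25, 17.9 and 4.03 CPM in the PF cows and 11.6, 19.4 and 19.9 CPM in the HS cows. The HS cows were above all TN cows, but PF 2 lay within the HS range. *S100A9* had a log2 fold change of 1.51 (SE 0.34, edgeR FDR = 0.2696) in HS vs. TN. With DESeq2 the FDR was 0.0117, and over the 15 alternatives it ranged from 0.0117 to 0.8698. Here too the upper end came from glmTreat. With each cow left out, the edgeR FDR was 0.216 to 0.611.

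*S100A8*, the partner subunit, was at 0.0895, 2.78 and 3.34 CPM in the TN cows, 1.54, 4.97 and 1.68 CPM in the PF cows and 3.06, 8.83 and 11.8 CPM in the HS cows. The TN 1 value stood for 2 counts, HS 2 and HS 3 were the highest cows, and HS 1 was at the level of TN 2 and TN 3. *S100A8* had a log2 fold change of 1.94 (SE 0.87, edgeR FDR = 0.522) in HS vs. TN and 1.52 (SE 0.57, edgeR FDR = 0.795) in HS vs. PF, the largest of the subgroup in both pairs. *CXCR2*, the chemokine receptor that draws neutrophils into tissue, was at 2.998, 5.74 and 6.202 CPM in the TN cows, 3.67, 4.02 and 2.29 CPM in the PF cows and 7.901, 4.56 and 6.796 CPM in the HS cows. All PF cows were below all HS cows. *CXCR2* had a log2 fold change of 0.95 (SE 0.37, edgeR FDR = 0.8301) in HS vs. PF and -0.58 (SE 0.43, edgeR FDR = 0.744) in PF vs. TN, the largest of the subgroup in the latter pair.

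*NKG7*, a granule protein of natural killer and cytotoxic T cells, was at 17.3, 30.6 and 25.8 CPM in the TN cows, 17.3, 22.7 and 18.6 CPM in the PF cows and 33.5, 30.4 and 32.9 CPM in the HS cows. The HS cows lay within a narrow range above all PF cows, and TN 2 reached the lowest of them. *NKG7* had a log2 fold change of 0.72 (SE 0.21, edgeR FDR = 0.614) in HS vs. PF.

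The T cell genes *CD3E* and *CD3D*, chains of the T cell receptor complex, ranged over 13.6 to 29.3 CPM and 3.82 to 9.82 CPM. *CD2*, an adhesion receptor of T and natural killer cells, ranged over 2.89 to 8.52 CPM. *CD8A*, the coreceptor of cytotoxic T cells, was at 8.19, 10.5 and 10.02 CPM in the TN cows, 8.05, 6.59 and 9.48 CPM in the PF cows and 4.95, 6.78 and 8.01 CPM in the HS cows. For *CD8A* the HS cows were all lower than the TN cows, by a margin that was narrow between HS 3 and TN 1. Of these 4 genes, 0 had an unadjusted p under 0.05 in HS vs. TN by edgeR (9.36% of all genes), and 0 had one by DESeq2. *PTPRC*, the phosphatase CD45 found on all leukocytes, was at 58.3, 60.96 and 63.2 CPM in the TN cows, 52.4, 39.2 and 49.7 CPM in the PF cows and 50.9, 45.8 and 53.96 CPM in the HS cows. All TN cows were above all cows of both other groups.

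The B cell genes *MS4A1* and *CD79A*, which encode the surface protein CD20 and a chain of the B cell receptor, ranged over 2.34 to 6.66 CPM and 1.89 to 5.28 CPM. Their groups overlapped in every pair. The plasma cell list of 5 genes had 2 higher and 3 lower of 5 tested (median log2 fold change 0.00) in HS vs. TN and 4 higher and 1 lower of 5 tested (median log2 fold change 0.19) in HS vs. PF, and 2 higher and 3 lower of 5 tested (median log2 fold change -0.39) in PF vs. TN. Its gene with the smallest p against TN, *SDC1*, a syndecan that hepatocytes also make, had log2 fold changes of 1.34 (SE 0.29, edgeR FDR = 0.257) in HS and 1.16 (SE 0.29, edgeR FDR = 0.586) in PF.

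A companion list of 33 other leukocyte genes had 10 higher and 19 lower of 29 tested (median log2 fold change -0.21) in HS vs. TN, 8 higher and 23 lower of 31 tested (median log2 fold change -0.29) in PF vs. TN and 17 higher and 13 lower of 30 tested (median log2 fold change 0.13) in HS vs. PF. *S100A12*, a further calcium-binding protein of neutrophils, was at 12.3, 12.5 and 20.8 CPM in the TN cows, 3.67, 30.4 and 11.5 CPM in the PF cows and 20.3, 39.5 and 92.4 CPM in the HS cows. HS 3 was far above the others, and PF 2 lay among the HS cows as it did for *S100A9*. *S100A12* had a log2 fold change of 1.72 (SE 0.49, edgeR FDR = 0.392) in HS vs. TN and 1.73 (SE 0.67, edgeR FDR = 0.821) in HS vs. PF, with the smallest p of the list in both. The smallest p of PF vs. TN belonged to *ITGAL*, the leukocyte integrin chain that binds ICAM1, with a log2 fold change of -0.72 (SE 0.27, edgeR FDR = 0.708).

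A list of 17 ligands that act on these cells had 3 higher and 12 lower of 15 tested (median log2 fold change -0.18) in HS vs. TN, 9 higher and 6 lower of 15 tested (median log2 fold change 0.13) in HS vs. PF and 5 higher and 10 lower of 15 tested (median log2 fold change -0.26) in PF vs. TN. *WNT2*, a signal released by endothelial cells around the central vein, was at 13.02, 20.8 and 8.71 CPM in the TN cows, 6.87, 5.14 and 7.49 CPM in the PF cows and 5.43, 3.51 and 6.46 CPM in the HS cows. All TN cows were above all cows of both other groups. *WNT2* had a log2 fold change of -1.48 (SE 0.37, edgeR FDR = 0.315) in HS vs. TN and -1.13 (SE 0.35, edgeR FDR = 0.693) in PF vs. TN.

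A list of 12 genes for the recruitment of leukocytes had 3 higher and 8 lower of 11 tested (median log2 fold change -0.17) in HS vs. TN, 8 higher and 3 lower of 11 tested (median log2 fold change 0.08) in HS vs. PF and 3 higher and 8 lower of 11 tested (median log2 fold change -0.26) in PF vs. TN. *VCAM1*, an adhesion molecule of activated endothelium, was at 13.7, 29.3 and 18.96 CPM in the TN cows, 53.3, 32.9 and 17.99 CPM in the PF cows and 42.1, 27.5 and 39.5 CPM in the HS cows. The lowest cows were TN 1 and PF 3, and the highest was PF 1. *VCAM1* had a log2 fold change of 0.81 (SE 0.30, edgeR FDR = 0.473) in HS vs. TN. *CXCL10*, a chemokine for T cells induced by interferon, was at 10.6, 67.4 and 5.37 CPM in the TN cows, 11.7, 7.15 and 7.696 CPM in the PF cows and 18.3, 4.15 and 5.85 CPM in the HS cows. TN 2 was far above all other cows. *CXCL10* had a log2 fold change of -1.65 (SE 0.72, edgeR FDR = 0.708) in PF vs. TN.

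**Figure D5:**
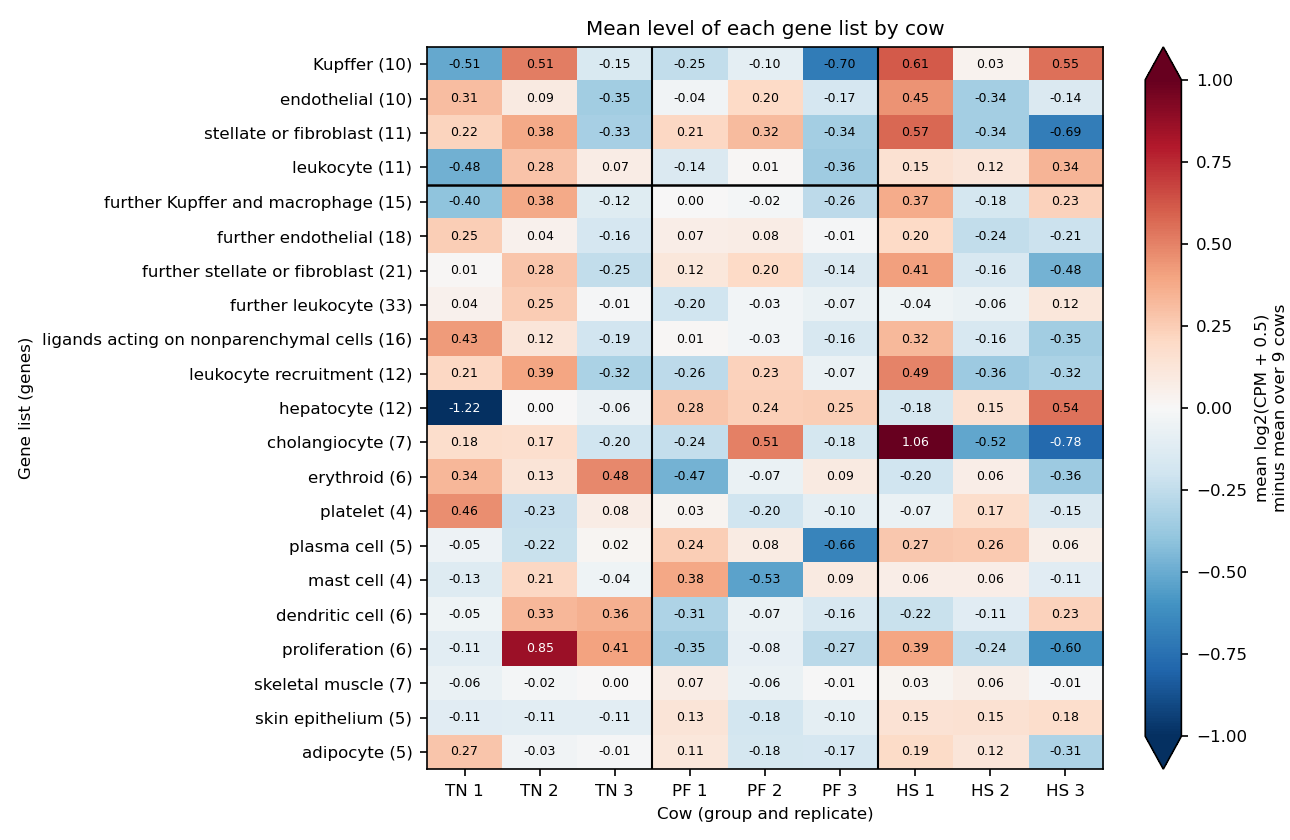
Mean of log2(CPM + 0.5) of each gene list (rows, number of genes in brackets) in each cow (columns), minus its mean over the 9 cows. The hepatocyte list was lowest in TN 1 and the cholangiocyte list was highest in HS 1, in which the Kupffer, endothelial and stellate or fibroblast lists were also high.

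The markers also varied between cows of one group. HS 1 was the highest cow for 17 of 42 markers (40.5%, against 9.14% of all genes). It was above the median of the 9 cows for all 10 Kupffer genes, all 10 endothelial genes and 10 of the 11 stellate or fibroblast genes. PF 3 was the lowest cow for 10 of 42 (23.8%, against 5.77% of all genes) and was above the median for 3 of 42. HS 3 was the highest cow for 3 Kupffer genes and 3 leukocyte genes, and the lowest for 5 of the 11 stellate or fibroblast genes. HS 2 was above the median for 0 of the 10 endothelial and 0 of the 11 stellate or fibroblast genes. TN 1, with the low hepatocyte level, was above the median for 0 of the 10 Kupffer genes and for 8 of the 10 endothelial genes.

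Counts that involve TN were also taken without TN 1. In HS vs. TN, 25 markers were then higher and 17 lower, with 4 at an unadjusted p under 0.05. In PF vs. TN, 14 were higher and 28 lower, with 5 at that p in place of 2. TN 1 was also the highest cow for 23.1% of all genes and the lowest for 26.9%. The share of all genes at that p was not counted without TN 1. The change from 2 to 5 is therefore not shown to be particular to the markers.

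Ratios between markers within a cow do not depend on the library size. They were chosen after the values were seen and are given without a test. *MARCO* per *CD163* was 0.747, 0.996 and 0.841 in the TN cows, 0.957, 1.396 and 0.745 in the PF cows and 1.33, 1.42 and 2.26 in the HS cows. It was higher in every HS cow than in every TN cow, and PF 2 lay within the HS range. *NKG7* per *CD3E* was 0.8502, 1.04 and 1.49 in TN, 0.744, 1.66 and 1.09 in PF and 1.85, 2.203 and 1.97 in HS, and every HS cow was above every other cow. *KDR* per *STAB2* was 0.634, 0.722 and 0.589 in TN, 1.24, 1.06 and 1.27 in PF and 0.965, 0.705 and 0.919 in HS. The PF cows were above all others in this ratio. Further ratios were computed. *S100A9* per *PTPRC* was 0.0599, 0.112 and 0.116 in TN, 0.0429, 0.458 and 0.0810 in PF and 0.228, 0.423 and 0.369 in HS. For *CD5L* per *CD163*, *CD68* per *CD163*, *COL1A1* per *COL3A1*, *CD8A* per *CD3E* and *CD3E* per *PTPRC*, the groups overlapped in every pair.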

How the data were processed

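The authors deposited raw read counts per gene for 9 liver libraries, without normalization. Per the study's methods, reads were trimmed with fastp 0.23.2, aligned with STAR 2.7.9a to ARS-UCD1.2 with no more than 3 mismatches, and assigned to genes with featureCounts 2.0.3. The annotation release, strand setting and treatment of multi-mapping reads are not given in the sources used here, so overlapping genes and near-identical copies may share reads. All 9 columns were mapped to a cow by their labels.

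For every pair of groups, edgeR 4.0.16 (R 4.3.3) was run on the 6 libraries concerned (TMM, filterByExpr, quasi-likelihood F test, Benjamini-Hochberg adjustment over all genes tested). The SE is the absolute log2 fold change divided by the square root of F. CPM values are TMM-normalized over 9 libraries, with an offset of 0.5 on the log2 scale. Library totals were 16874444 to 22557047 counts. No 2 libraries were identical. The fits were also run on simulated counts in which all genes had the same dispersion (spread between cows). Because spread was not allowed to differ between genes there, that run does not show how reliable the calls are here. Alternatives were DESeq2 1.42.0 (the tool of the study), RLE size factors, mitochondrial genes left out, other low-count filters, 1 fit of 9 libraries, the replicate block, other thresholds, and each cow left out.

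The markers, companion lists and tests were chosen with earlier results of these data known. Every marker is named with its level. Fold changes are given for markers with an unadjusted p under 0.05 in a pair and for the largest of each subgroup. Companion genes are named where they had the smallest p of their list, if under 0.05, or where they are a defining marker at 0 counts in every cow; *ALB* and the marker ratios were chosen after their values were seen. Symbols were matched (42 of 42) to the RefSeq annotation of ARS-UCD2.0, which served only to find overlapping genes. No positions or sequences are given.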

Additional observations from a re-analysis of the deposited data

How the results depend on the processing

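No marker was a DEG by edgeR in any pair under RLE size factors, mitochondrial genes left out or at least 10 counts in every library. The same held for all 9 libraries in 1 fit and for each cow left out. An FDR under 0.05 and glmTreat are stricter thresholds on the main fit, so they could not add a marker to the 0 called. The exceptions came with DESeq2, which called 2 markers in HS vs. TN, and with no filter on low counts, which called 1 (*S100A9*, FDR = 0.0526 by edgeR). In the 3-group test, which called 0 markers, DESeq2's likelihood ratio test and no filter each called 1 (*MARCO*). How many of all genes passed was not counted in these alternatives of the 3-group test. For the pairs, the totals over all genes are given in the next paragraph. The cause of these differences between settings was not tested. Among the 22 single-marker fold changes named for their size or their p, 325 values under an alternative kept their direction and their side of the threshold, 3 passed the threshold (*MARCO* and *S100A9* as above) and 1 turned, *EMCN* in HS vs. TN, which ranged from -0.91 without HS 1 to 0.15 without TN 1. The 325 include the values at the stricter thresholds, for which passing was not possible. Over all 42 markers, the sign of the log2 fold change turned under at least 1 alternative for 18 in HS vs. TN, 17 in HS vs. PF and 20 in PF vs. TN, each time with a cow left out. The summed leukocyte level had a log2 ratio of 0.04 in HS vs. TN and 0.25 as a mean of log2 values, which weights low genes equally.

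The number of DEGs over all genes was 13 in HS vs. TN, 4 in HS vs. PF and 0 in PF vs. TN. It was 270, 122 and 91 with DESeq2, and 124, 98 and 136 with no filter. In HS vs. TN it was 4 with all 9 libraries in 1 fit, 0 at an FDR under 0.05 and 2 with glmTreat. In HS vs. PF it was 8 with RLE size factors and 8 with mitochondrial genes left out, and in PF vs. TN it was 1 with at least 10 counts in every library. With each cow left out it was 0 to 39, 5 to 10 and 0 to 14. The number of markers at an unadjusted p under 0.05 was 2 to 6, 4 to 11 and 1 to 5 with each cow left out. The share of all genes at that p was not counted in those fits. In PF vs. TN it was also 5 with no filter and 1 with all 9 libraries in 1 fit. Of the cows left out, TN 2 gave the most DEGs in HS vs. TN and PF vs. TN, and PF 3 gave the most in HS vs. PF.

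The sources used here do not say which PF and HS cows were matched, and the replicate numbers showed no clear pairing. Deviations of same-numbered cows from their group means correlated at -0.22 to 0.24, and 6 of 18 comparisons had the best correlation with the same number. With so few cows this check cannot exclude a pairing. With the replicate block, DEGs over all genes numbered 33 in HS vs. TN, 6 in HS vs. PF and 1 in PF vs. TN, and 0 markers were DEGs. With 3 cows in a group, a marker that missed the threshold was not shown to be equal between groups.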

Other observations

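The lists of other cell types were followed in the same fits, as counts of genes higher and lower beside the medians of all genes (-0.01, 0.01 and -0.01). The hepatocyte list had 10 higher and 2 lower of 12 tested (median log2 fold change 0.61) in HS vs. TN, 6 higher and 6 lower of 12 tested (median log2 fold change 0.02) in HS vs. PF and 11 higher and 1 lower of 12 tested (median log2 fold change 0.53) in PF vs. TN. These counts include TN 1, in which the list was lowest. The cholangiocyte list had 4 higher and 2 lower of 6 tested (median log2 fold change 0.23) in HS vs. TN, 2 higher and 4 lower of 6 tested (median log2 fold change -0.09) in HS vs. PF and 3 higher and 3 lower of 6 tested (median log2 fold change 0.29) in PF vs. TN. *SPP1*, a secreted phosphoprotein of bile ducts and macrophages, was at 0.761, 108 and 1.01 CPM in the TN cows, 0.414, 1.397 and 1.94 CPM in the PF cows and 8.71, 1.29 and 1.68 CPM in the HS cows, with a log2 fold change in PF vs. TN of -4.85 (SE 1.53, edgeR FDR = 0.695). TN 2, the cow with high Kupffer genes in its group, was the highest cow for *SPP1*.

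The dendritic cell list was lower for all 6 genes in PF vs. TN (median log2 fold change -0.45) and for 5 of 6 in HS vs. TN (median -0.33). It had 3 higher and 2 lower of 5 tested (median log2 fold change 0.34) in HS vs. PF. The proliferation list had 1 higher and 4 lower of 5 tested (median log2 fold change -0.96) in HS vs. TN, 2 higher and 1 lower of 3 tested (median log2 fold change 0.01) in HS vs. PF and 2 higher and 4 lower of 6 tested (median log2 fold change -1.04) in PF vs. TN. *BUB1*, a mitotic checkpoint kinase, had a log2 fold change of -2.52 (SE 0.82, edgeR FDR = 0.697) in PF vs. TN. The erythroid list had 2 genes tested in each pair, and *HBB*, the beta chain of hemoglobin, was at 7.83, 3.21 and 22.4 CPM in the TN cows, 0, 2.12 and 2.04 CPM in the PF cows and 1.07, 0.526 and 0.336 CPM in the HS cows. All TN cows were above all other cows, with log2 fold changes of -4.04 (SE 0.74, edgeR FDR = 0.163) in HS and -2.99 (SE 0.93, edgeR FDR = 0.693) in PF. The platelet list had 2 genes tested, and *ITGA2B*, an integrin chain of platelets, had a log2 fold change of -0.88 (SE 0.30, edgeR FDR = 0.457) in HS vs. TN.

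The mast cell, adipocyte and skin epithelium lists had few genes tested, and the skeletal muscle list had 0. In HS vs. TN the mast cell list had 1 higher and 1 lower of 2 tested (median log2 fold change 0.14), the adipocyte list 1 higher and 2 lower of 3 tested (median log2 fold change -0.02) and the skin list 2 higher and 0 lower of 2 tested (median log2 fold change 0.79). *DSP*, a desmosome protein of the skin list that hepatocytes also make, was at 20.2, 30.7 and 29.8 CPM in the TN cows, 42.4, 31.4 and 33.2 CPM in the PF cows and 50.1, 48.5 and 67.02 CPM in the HS cows. The HS cows were above all others, and the log2 fold change was 1.02 (SE 0.24, edgeR FDR = 0.2804) in HS vs. TN and 0.63 (SE 0.23, edgeR FDR = 0.795) in HS vs. PF. None of the genes named here was a DEG by edgeR.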
